A study of Mus musculus with 12 samples.

Results

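The genes described here are 7 protein arginine methyltransferases, Prmt1, Prmt2, Prmt3, Prmt5, Prmt6, Prmt7 and Carm1, together with Wdr77, the obligate partner of Prmt5. They were chosen by name, with earlier results of these data known. All 8 were found among the 12516 gene symbols of the expression table and passed the filter that left 12432 genes for testing. Expression was measured by RNA sequencing in germ cells of 12 single female mouse embryos at embryonic day 13.5, sorted as Oct4+. All 12 carried the Gulo-/- genotype on a C57BL/6 background and thus lacked the enzyme of the final step in making vitamin C, which then has to come from the maternal diet. In 6 embryos the mother was supplied with physiological amounts of vitamin C, and in the other 6 the vitamin was withdrawn in the opening weeks of pregnancy; these are called supplied and withdrawn embryos. The question addressed is whether germ cell transcripts of the fetus differ with the vitamin C intake of the mother.

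Protein arginine methyltransferases transfer methyl groups from S-adenosylmethionine to arginine side chains of histones, splicing factors and many RNA-binding proteins. Prmt1, Prmt2, Prmt3, Prmt6 and Carm1 (Prmt4) are type I enzymes, which place both methyl groups on the same nitrogen; Prmt5 is the main type II enzyme, which places them symmetrically; Prmt7 makes monomethylarginine. In the germ line Prmt5 is known to act with the repressor Prdm1 (Blimp1) in primordial germ cells and to methylate Sm and Piwi proteins, whose methylarginines are bound by Tudor domain proteins.

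Prmt1 and Prmt5 were higher in withdrawn embryos and correlated over the embryos, though each correlated more highly with other genes. Wdr77, the partner of Prmt5, did not pass the test. The sequences upstream of Prmt1, Prmt5 and Wdr77 are therefore shown. Each is the 250 bases before the annotated start from RefSeq on build GRCm38.p6, read on the strand of the gene. Capitals mark the CCAAT box, the E-box CACGTG and the GC box GGGCGG, searched on both strands (so also as ATTGG and as CCGCCC); these motifs do not overlap each other in the windows shown and were chosen after the sequences had been seen.
Prmt1: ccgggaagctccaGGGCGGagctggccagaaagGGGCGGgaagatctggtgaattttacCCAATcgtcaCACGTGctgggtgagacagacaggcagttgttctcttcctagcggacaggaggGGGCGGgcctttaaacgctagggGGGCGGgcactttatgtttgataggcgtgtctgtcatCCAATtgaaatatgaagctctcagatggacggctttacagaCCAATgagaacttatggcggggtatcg
Prmt5: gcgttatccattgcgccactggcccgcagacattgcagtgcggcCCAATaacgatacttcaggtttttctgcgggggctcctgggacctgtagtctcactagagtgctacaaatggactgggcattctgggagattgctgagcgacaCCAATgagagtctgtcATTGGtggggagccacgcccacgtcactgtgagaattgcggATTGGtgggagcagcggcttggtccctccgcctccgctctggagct
Wdr77: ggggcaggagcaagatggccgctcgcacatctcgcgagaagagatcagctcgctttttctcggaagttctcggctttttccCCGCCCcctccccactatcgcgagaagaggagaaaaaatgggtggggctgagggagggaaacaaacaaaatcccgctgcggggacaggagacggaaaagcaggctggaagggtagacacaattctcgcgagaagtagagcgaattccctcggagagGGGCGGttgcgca
The window of Prmt1 is chr7:44986421-44986670 on the minus strand, that of Prmt5 is chr14:54517471-54517720 on the minus strand and that of Wdr77 is chr3:105959248-105959497 on the plus strand.

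The Prmt5 window held 4 CCAAT boxes and none of the other motifs. Upstream of Prmt1 lay 3 CCAAT boxes, 1 CACGTG and 4 GGGCGG. The Wdr77 window held 2 GGGCGG and no CCAAT. Of 32817 windows of the same length, 33.8% held CCAAT, 2.79% held it 3 or more times and 0.835% held it 4 or more times. CACGTG was found in 6.02%. GGGCGG was found in 32.7%, 3 or more times in 8.47% and 4 or more times in 4.09%. RefSeq windows were matched for 7 of the 8 genes, and in the other 4 of them, Prmt2, Prmt3, Prmt6 and Prmt7, CCAAT occurred at most 1 time. The other motifs were not limited to Prmt1 and Wdr77: Prmt3 held 1 CACGTG, and Prmt2, Prmt3 and Prmt7 each held 1 GGGCGG. A motif match is a description of the letters and says nothing about binding.

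Of the 8 genes, 2 rose in withdrawn embryos: Prmt1, the main producer of asymmetric dimethylarginine, by 1.25-fold, and Prmt5 by 1.24-fold. The share of all tested genes called higher was 6.22% and the share called lower was 7.75%. In the same limma fit 0 of the 8 were called lower, with 0 lower also at an unadjusted p under 0.05 and by an exact permutation test of each gene. The log2 fold change, withdrawn minus supplied, was positive for 7 of the 8 genes, beside 46.6% of all genes tested. Its median over the 8 was 0.03, beside -0.01 over all genes tested. Apart from Prmt1 and Prmt5, the positive values ran from 0.01 to 0.05, each smaller than its SE. These comparisons with all genes are not matched for level, and 6 of the 8 lay above the median level. In a fit of the 6258 genes at or above the median level, the median was 0.02, with 724 called higher and 508 lower. The mean of the 8 genes per embryo ran from 9.42 to 9.54 in supplied and from 9.53 to 9.63 in withdrawn embryos. All values below are the deposited normalized log2 expression, and differences are on that scale. In sorted bulk samples, fewer cells of a type and less RNA per cell cannot be told apart.

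**Figure D1:**
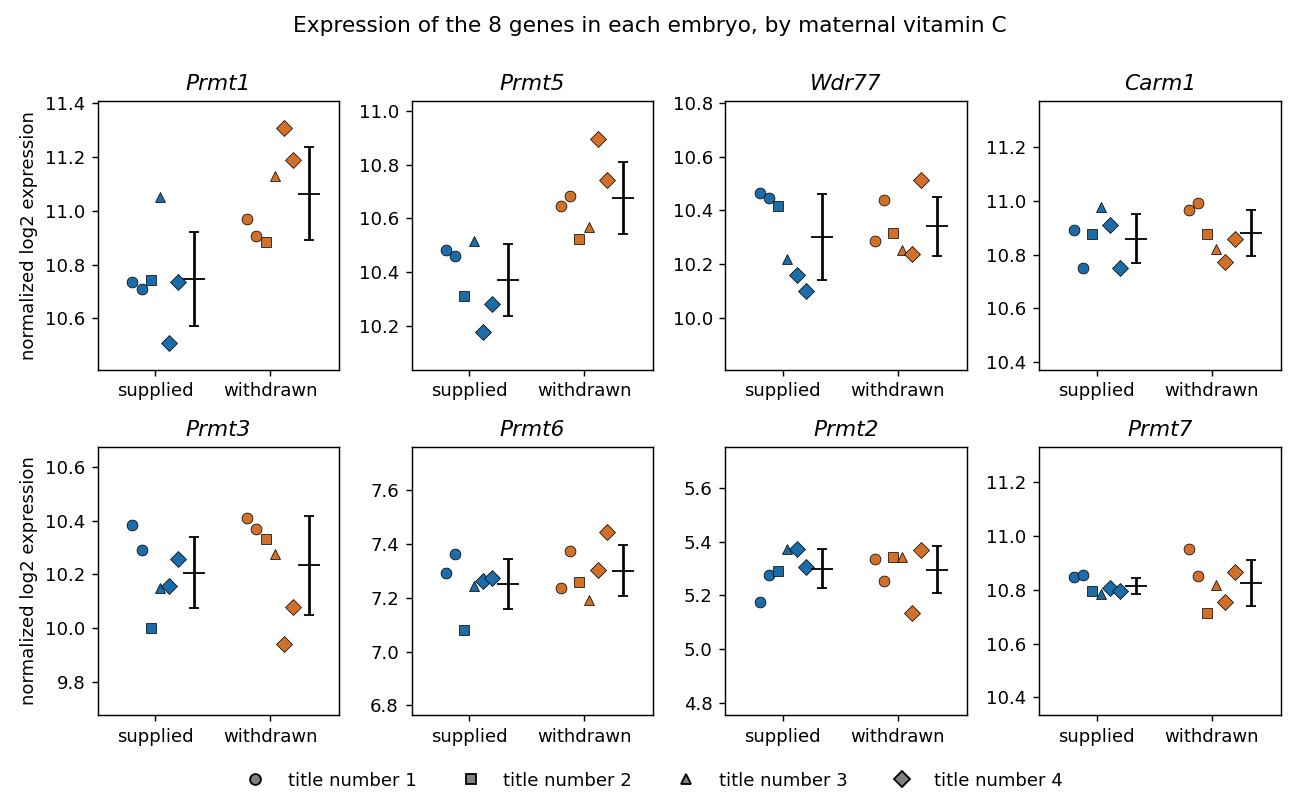
Normalized log2 expression (y axis, every panel spanning the same log2 range) of the 8 genes in each of the 6 supplied (blue) and 6 withdrawn (orange) embryos; symbols mark the number in the sample title and bars give the mean ± SD. For Prmt5 every withdrawn embryo lies above every supplied one, for Prmt1 a single supplied embryo lies among the withdrawn ones, and the other 6 genes overlap broadly.

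Prmt1 ranged in supplied embryos from 10.51 through a median of 10.73 to 11.05, and in withdrawn embryos from 10.88 through 11.05 to 11.31. The supplied maximum came from replicate 4, and the other 5 supplied embryos lay below all withdrawn ones. All 6 withdrawn embryos lay above the supplied mean and 3 above the supplied maximum, so the groups overlapped through that supplied embryo. The means were 10.75 ± 0.17 and 11.06 ± 0.17 (SD, n = 6 each), a log2 difference of 0.32 (SE 0.09, 95% interval 0.14 to 0.49; limma adjusted p = 0.0182; exact two-sided permutation p = 0.0130). Supplied replicate 4 also stood apart over all genes: on the first principal component, which held 45.5% of the variance, its score of 1.54 lay within the withdrawn range of 1.27 to 23.2, while the other supplied embryos scored from -18.3 to -6.56. Without it the Prmt1 difference was 0.38 with an adjusted p of 0.00284, the smallest of the 27 alternatives. The same omission raised the count of all genes called from 1737 to 2315. As this embryo was the one that overlapped, leaving it out adds no support for the call.

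Prmt5, the main symmetric dimethyltransferase, gave supplied values of 10.18, 10.39 and 10.52 as lowest, median and highest. The withdrawn embryos lay at 10.52, 10.66 and 10.90. The groups did not overlap, as was the case for 4.49% of all genes tested and for 1 of the 8 described here. The gap between them was only 0.0071, between supplied replicate 4 and withdrawn replicate 3, and after quantile normalization the groups overlapped. The means were 10.37 ± 0.13 and 10.68 ± 0.13 (SD, n = 6 each), a log2 difference of 0.30 (SE 0.07, 95% interval 0.15 to 0.46; limma adjusted p = 0.0116). The exact two-sided permutation p was 0.00216, the smallest that 6 against 6 embryos can give.

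Both calls leaned on the embryos with title number 4, as did the count of all genes called (1737, and 49 without these embryos). The titles carry numbers from 1 to 4 that occur under both diets, and a number occurs in 2 embryos of the same diet in 4 cases; whether such embryos had the same mother is not stated. The log2 difference within number 4 was 0.63 for Prmt1 and 0.59 for Prmt5. Within numbers 1, 2 and 3 it was 0.22, 0.14 and 0.08 for Prmt1 and 0.19, 0.21 and 0.05 for Prmt5. The direction was thus the same within all 4 numbers for both genes, which adds no separate support. For Prmt5 it follows from the lack of overlap between the diets. For Prmt1 only number 3, which holds supplied replicate 4, could have differed. With all embryos of number 4 left out the differences were 0.16 (adjusted p = 0.357) for Prmt1 and 0.16 (adjusted p = 0.285) for Prmt5, and with embryos of the same number and diet averaged they were 0.27 (adjusted p = 0.129) and 0.26 (adjusted p = 0.0926). The Prmt1 call was also lost without number 1 (0.37, adjusted p = 0.0569), without supplied replicate 5 (0.27, adjusted p = 0.0558) and when the exact permutation test replaced limma (adjusted p = 0.0906). Over the 27 alternatives the adjusted p ran from 0.00284 to 0.357 for Prmt1 and from 0.0052 to 0.285 for Prmt5.

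**Figure D2:**
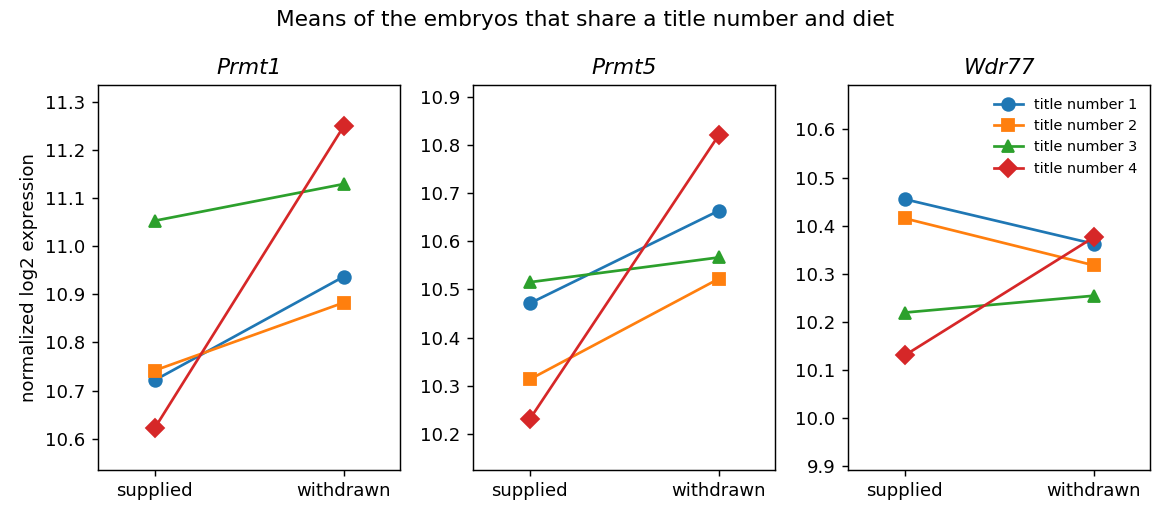
Mean normalized log2 expression (y axis) of the embryos that share a title number, under the supplied and withdrawn diets, for Prmt1, Prmt5 and Wdr77; each line joins the 2 diets of a number. The lines of Prmt1 and Prmt5 all rise and that of number 4 is the steepest, by 0.63 and 0.59, whereas the Wdr77 lines run both ways.

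Prmt1 and Prmt5 had their extremes in the same embryos, but the order of the embryos between those differed. Withdrawn replicate 5 was the highest of the 12 for both and supplied replicate 5 the lowest; these also lay at the ends of the first principal component over all genes, at 23.2 and -18.3. After each diet's mean was removed, the values of Prmt1 and Prmt5 correlated at r = 0.74 over the 12 embryos, which share their library preparation and normalization. This was the highest r among all pairs of the 8 genes. Prmt5 with Wdr77 gave 0.34, Prmt1 with Prmt3 gave -0.56 and Prmt2 with Prmt5 gave -0.59. The r of Prmt1 and Prmt5 was not set against pairs of all genes, and each correlated more highly with other genes, given below.

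**Figure D3:**
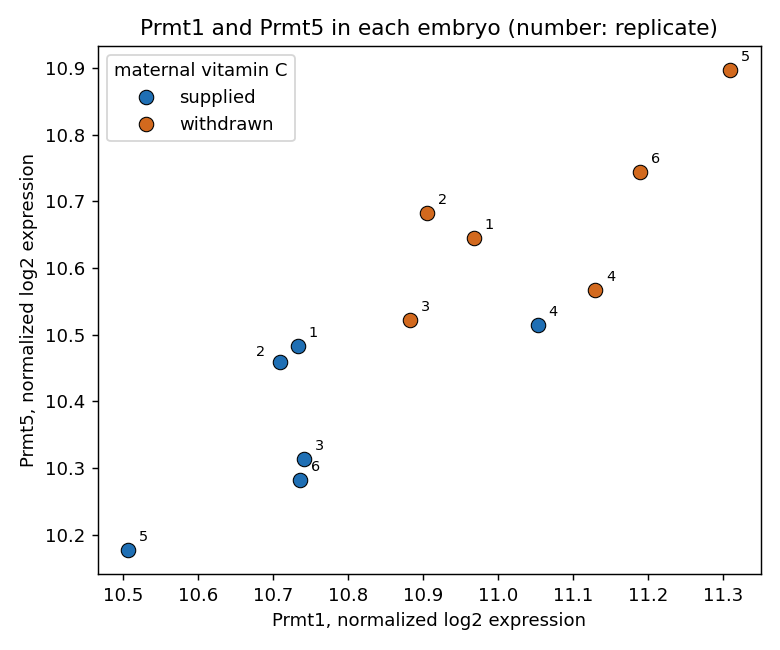
Prmt1 (x axis) against Prmt5 (y axis), both as normalized log2 expression, in the 6 supplied (blue) and 6 withdrawn (orange) embryos, numbered by replicate. The embryos run along a diagonal from supplied replicate 5 at 10.51 and 10.18 to withdrawn replicate 5 at 11.31 and 10.90.

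Over the whole table, the genes whose deviations from the diet means were most like those of Prmt1 over the 12 embryos were Pabpn1, a nuclear poly(A)-binding protein (r = 0.96), Bop1, a ribosome biogenesis factor (r = 0.96), and Cfdp1 (r = 0.95). Nearest to Prmt5 were Hk2, a hexokinase (r = 0.96), Hnrnpf, a splicing regulator (r = 0.94), and Zswim1 (r = 0.92). Nearest to Wdr77 were Mcart1, Pkn2 and Nlrp4c (r = 0.86, 0.86 and 0.85). These are the highest of the correlations with all 12432 genes, over 12 embryos each, and are given as a description.

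Wdr77, the WD-repeat protein that holds substrates for Prmt5, gave 10.10, 10.32 and 10.46 as the lowest, median and highest supplied values. In withdrawn embryos the corresponding values were 10.24, 10.30 and 10.51. The groups overlapped: 3 of the 6 supplied embryos lay below all withdrawn ones, and 1 withdrawn embryo lay above all supplied ones. The means were 10.30 ± 0.16 and 10.34 ± 0.11 (SD, n = 6 each), a difference of 0.04 (95% interval -0.12 to 0.20; limma adjusted p = 0.764). Within title numbers it was -0.09, -0.10, 0.04 and 0.25, in both directions.

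Prmt5 and its partner were set against each other in each embryo, a contrast chosen after the values had been seen. The value of Prmt5 minus that of Wdr77 averaged 0.07 ± 0.14 (SD, n = 6) under the supplied and 0.33 ± 0.17 (SD, n = 6) under the withdrawn diet. The increase of 0.26 had an exact two-sided permutation p of 0.0152, and 3 of 6 withdrawn embryos lay above all supplied ones. It was 0.22 without title number 4 (exact permutation p = 0.0857), 0.25 without number 1 (exact permutation p = 0.114) and 0.24 with embryos of the same number and diet averaged (exact permutation p = 0.0571); in that averaged test the smallest possible p is 0.0286.

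The remaining type I enzymes did not pass the test. Carm1, a coactivator that methylates histone H3 and splicing factors, lay at 10.86 ± 0.09 in supplied and 10.88 ± 0.09 in withdrawn embryos, with a difference of 0.02 (95% interval -0.11 to 0.15; adjusted p = 0.858). For Prmt3, a cytosolic enzyme that methylates the ribosomal protein Rps2, the means were 10.21 ± 0.13 and 10.24 ± 0.18 and the difference 0.03 (95% interval -0.14 to 0.20; adjusted p = 0.856). Its lowest value of the 12, 9.94, came from withdrawn replicate 5, the embryo with the highest Prmt1. Prmt6, a nuclear enzyme that methylates histone H3, lay at 7.25 ± 0.09 and 7.30 ± 0.09, with a difference of 0.05 (95% interval -0.09 to 0.19; adjusted p = 0.659). Prmt2, which has an SH3 domain and weak activity of its own, lay at 5.30 in both groups, with SDs of 0.07 and 0.09 and an interval for the difference of -0.10 to 0.10 (adjusted p = 0.978). Across these 4 genes the intervals reached from -0.14 to 0.20.

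Prmt7, the monomethylating enzyme, was the steadiest of the 8 in supplied embryos, from 10.78 to 10.86 with a median of 10.80. In withdrawn embryos it ran from 10.71 through 10.83 to 10.95, on both sides of the supplied range. The means were 10.81 ± 0.03 and 10.83 ± 0.08, with a difference of 0.01 (95% interval -0.11 to 0.13; adjusted p = 0.919). Its spread within the diets exceeded that of 10.6% of all genes tested, against 88.2% for Prmt1 and 66.5% for Prmt5. Of the enzymes outside the 8, Prmt9, a second symmetric enzyme listed under its older symbol Prmt10, lay at 10.08 ± 0.08 and 10.05 ± 0.12 (difference -0.03; adjusted p = 0.816), and Prmt8 is not among the listed symbols.

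**Figure D4:**
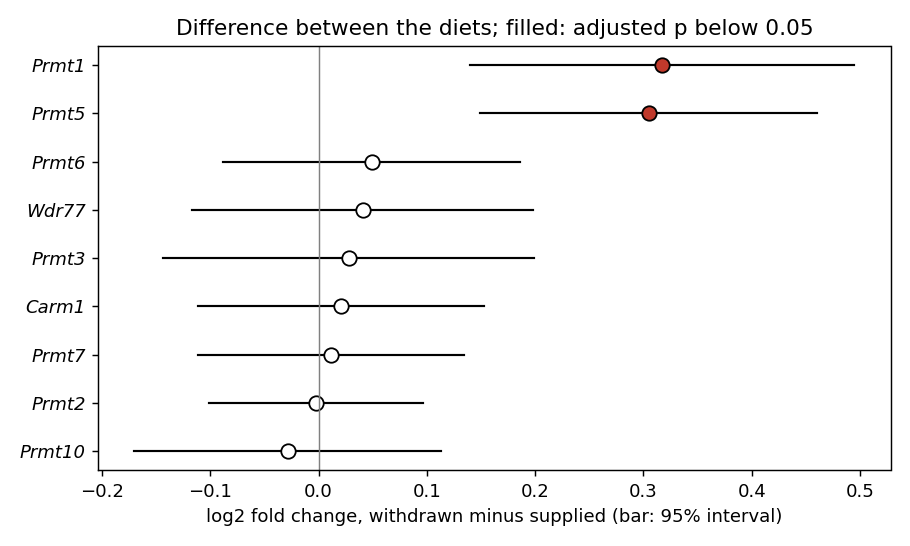
Log2 fold change, withdrawn minus supplied (x axis), with its 95% interval for the 8 genes and Prmt10 (Prmt9); filled points had a limma adjusted p below 0.05. Prmt1 at 0.32 and Prmt5 at 0.30 stand apart to the right, and the intervals of the others include 0.

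Levels of different genes were compared per kilobase of the longest coding transcript, on the log2 scale. In supplied embryos Prmt1 was the most abundant at 9.64, followed by Carm1 at 9.13, Prmt7 at 9.02, Prmt5 at 8.94 and Prmt3 at 8.88. Prmt10 followed at 8.60, Wdr77 at 8.42, Prmt6 at 5.64 and Prmt2 at 4.23. The neighbours Prmt7 and Prmt5, and Prmt5 and Prmt3, differed by less than the larger SD over embryos. In withdrawn embryos Prmt5, at 9.25, was above Carm1 at 9.15, a step smaller than its SD. The values of Prmt1 and Prmt7 depend on the transcript taken: with the shortest, they were 11.43 and 10.68 in supplied embryos. Of the 8 genes, 6 lay above the median level of all genes tested, the exceptions being Prmt6 and Prmt2.

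Around these enzymes, 84 of 93 genes from lists of partners, substrates, readers and methyl donor enzymes were tested. Of the 84, 64 lay above the median level, so the shares of all genes here and below are not matched for level. Among the 84, 8 rose (9.52%) and 5 fell (5.95%), beside 6.22% and 7.75% of all genes tested. The median log2 fold change was 0.02. With all embryos of title number 4 left out, 0 of these 13 calls remained, and over all genes 49 were called, against 1737 in the main fit. A lack of overlap between the diets, named below where it occurred, was found for 4.49% of all genes tested.

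Among partners of Prmt5, Prdm1, the repressor needed to specify primordial germ cells, rose by 0.26 from 9.97 ± 0.18 to 10.23 ± 0.15 (adjusted p = 0.0438), a call that 16 of 27 alternatives did not make. Its other 3 listed partners did not pass: Clns1a, which brings Sm proteins to the enzyme, at 0.14 (adjusted p = 0.114), the adaptor Riok1 at 0.16 (adjusted p = 0.147), and Copr5, listed as 2410022L05Rik, at 0.01 (adjusted p = 0.961). The median of the 4 was 0.15.

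Of 13 genes for Sm proteins, which form the core of spliceosomal particles, and for their assembly by the SMN complex, 3 rose (23.1%, beside 6.22% of all genes) and the median was 0.06. The share of all genes is not matched for level, and 10 of the 13 lay above the median level. Snrpd3, a Sm protein whose tail Prmt5 methylates, rose by 0.25 from 10.85 ± 0.06 to 11.11 ± 0.07 (adjusted p = 0.00875) without overlap between the diets. Snrpe rose by 0.24 (adjusted p = 0.0203), as did Smn1, the assembly factor (0.24, adjusted p = 0.0302; lost in 13 of 27 alternatives), while Snrpf lay at 0.19 (adjusted p = 0.0602). The other Sm substrates of Prmt5, Snrpd1 and Snrpb, added after their values were seen, lay at 0.06 and -0.04 (adjusted p = 0.546 and 0.739).

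Among Tudor domain readers, Piwi proteins and their companion helicase, 3 of 14 fell (21.4%, beside 7.75% of all genes), 1 had a positive value (7.14%, beside 46.6% of all genes) and the median was -0.11. Tdrd1, a multi-Tudor protein of germ granules, gave 8.31 ± 0.33 in supplied and 7.65 ± 0.17 in withdrawn embryos and fell by 0.66 (adjusted p = 0.00219). Tdrd7, another granule protein, fell by 0.41 (adjusted p = 0.0165), and Ddx4, the germ cell RNA helicase, by 0.34 (adjusted p = 0.0362; lost in 14 of 27 alternatives). Stk31, a kinase-like Tudor protein, had a difference of -0.42 (adjusted p = 0.0706), and Piwil2, a Piwi protein, one of -0.12 (adjusted p = 0.313; added after its value was seen).

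Of 17 RNA-binding and repair proteins known as Prmt1 substrates, 2 rose (11.8%, beside 6.22% of all genes). Positive values were found for 14 (82.4%, beside 46.6%), and the median was 0.09. The shares of all genes are not matched for level, and 16 of the 17 lay above the median level. In the fit of genes at or above the median level, 724 of 6258 were called higher, a share near that of the list, and the median was 0.02. Ncl, the nucleolar protein nucleolin, rose by 0.34 from 15.26 ± 0.16 to 15.61 ± 0.11 (adjusted p = 0.00428) with no overlap between the diets, but after quantile normalization its difference was 0.09 (adjusted p = 0.324). G3bp1, a stress granule protein, rose by 0.37 (adjusted p = 0.00799). Trp53bp1, of the DNA break response, and Fbl, the nucleolar methyltransferase fibrillarin, lay at 0.21 and 0.20 (adjusted p = 0.0536 and 0.0589). Of 9 tested partners of Prmt1 and enzymes of methylarginine turnover, limma and the exact permutation test called 0. An unadjusted limma p under 0.05 was found for 0 of the 9, beside 3754 of all 12432 genes tested. Only 2 of the 9 lay above the median level, and fold changes of low genes may be understated. Ddah1, which breaks down free asymmetric dimethylarginine, gave -0.14 and Jmjd6 gave 0.13.

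Among 11 substrates and coactivator partners of Carm1, 1 fell (9.09%, beside 7.75% of all genes). This was Ncoa1, a steroid receptor coactivator, which fell by 0.41 from 8.86 ± 0.24 to 8.45 ± 0.09 (adjusted p = 0.00721). The rest did not pass, with Med12, of the Mediator kinase module, at -0.21 (adjusted p = 0.0524), Ncoa2 at -0.16 and Ncoa3 at 0.13, and the list median was -0.01. Rps2, the Prmt3 substrate, lay at 0.02 (adjusted p = 0.906). Rps2 and Snrpe have processed pseudogenes, and how reads shared with such copies were counted is not stated, so their values are uncertain.

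The methyl donor cycle supplies S-adenosylmethionine to all these enzymes and clears its products; 2 of its 14 tested genes rose (14.3%, beside 6.22% of all genes) and 1 fell (7.14%, beside 7.75%), with a median of 0.06. Mtap, which clears methylthioadenosine, a known inhibitor of Prmt5, rose by 0.44 from 9.16 ± 0.15 to 9.61 ± 0.12 (adjusted p = 0.00219) without overlap. Srm, the spermidine synthase that releases methylthioadenosine, rose by 0.43 (adjusted p = 0.00735). Ahcyl2, a relative of S-adenosylhomocysteine hydrolase, fell by 0.26 (adjusted p = 0.0172) without overlap. The enzymes that make S-adenosylmethionine and hydrolyse S-adenosylhomocysteine, Mat2a and Ahcy, added after their values were seen, gave -0.05 and 0.09 (adjusted p = 0.595 and 0.313).

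**Figure D5:**
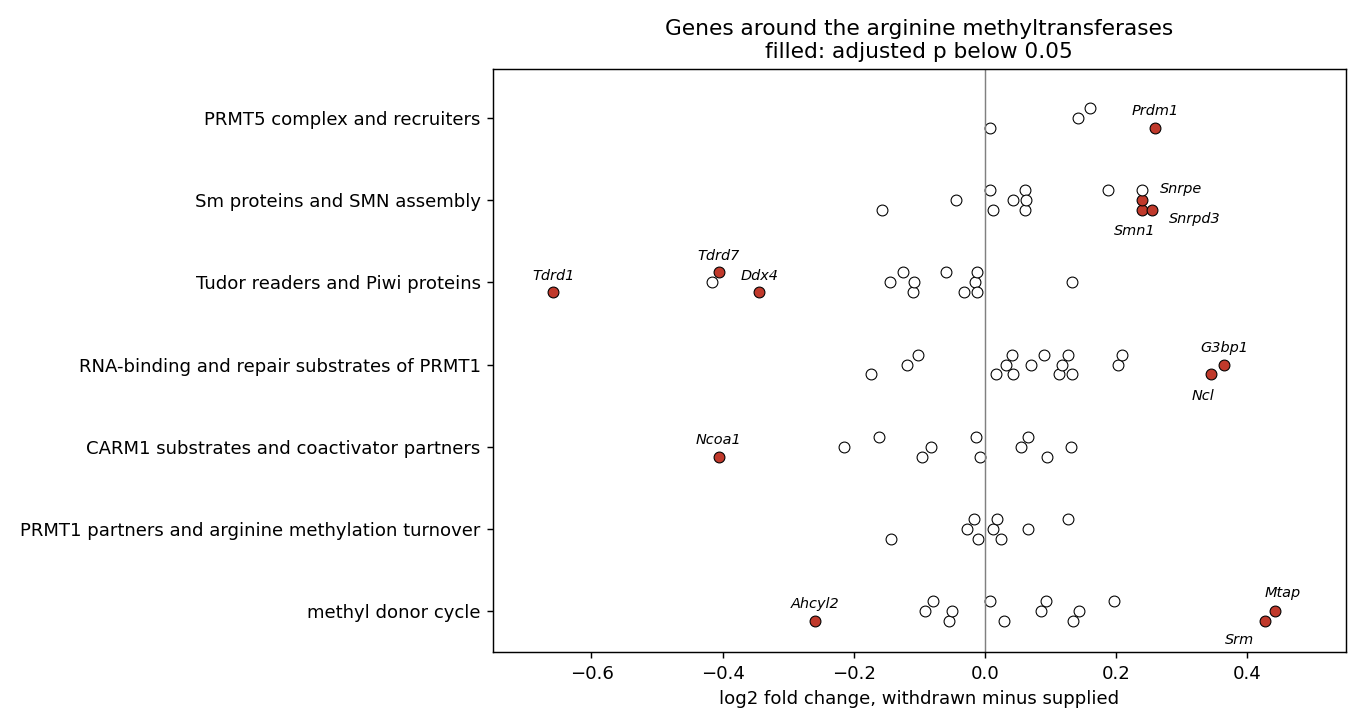
Log2 fold change, withdrawn minus supplied (x axis), of the genes around the arginine methyltransferases, by list (y axis; vertical offsets within a list only separate the points); filled, named points had a limma adjusted p below 0.05. Calls lie to the right for the Prmt5 complex, Sm and Prmt1 substrate lists and to the left for the Tudor and Piwi list, with Tdrd1 at -0.66 and Mtap at 0.44 at the ends.

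The labelled cell type was checked against 14 germ cell markers, of which 13 lay above the median level of all genes. Of these 14, 6 rose (42.9%, beside 6.22% of all genes) and 4 fell (28.6%, beside 7.75%). Pou5f1, a pluripotency factor and the basis of the sort, rose by 0.45 (adjusted p = 0.00505), and Stra8, which starts meiosis, fell by 1.77 (adjusted p = 0.0034). Markers of ovarian supporting cells were low: 14 of 16 were tested, 0 lay above the median level, and their summed level, on the log2 scale, ran from 9.39 to 9.63 in supplied and from 9.30 to 9.50 in withdrawn embryos. Kitl and Emx2 of that list fell (14.3%, beside 7.75% of all genes). Of the 14, 1 had a positive difference, beside 46.6% of all genes, and the median was -0.10. An unadjusted limma p under 0.05 was found for 7 of the 14, and for 3754 of all 12432 genes tested. Mesenchymal markers (7 of 13 tested) summed to 7.92 to 8.45 and 7.91 to 8.09; limma called 0 of the 7, but 0 had a positive difference, 4 had an unadjusted p under 0.05 and the median was -0.14. Blood and macrophage markers (4 of 11) summed to 7.04 to 7.37 and 6.94 to 7.23. Endothelial markers (7 of 9) summed to 10.94 to 11.43 and 11.33 to 11.53, with Pecam1 at 11.18 ± 0.19 and 11.38 ± 0.08 and the other 6 below the median level, and mesonephric epithelial markers (5 of 8) to 11.71 to 12.10 and 11.96 to 12.19, with Epcam and Cdh1 above the median level and Epcam higher by 0.22 (adjusted p = 0.029) in withdrawn embryos; germ cells at this age express these 3 genes as well. The part of the germ cell markers and of the somatic markers in the Prmt1 and Prmt5 differences was not tested.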

How the data were processed

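RNA from sorted germ cells of 12 embryos was sequenced with a SMART-based kit, per the labels' protocols. The authors deposited normalized log2 values per gene and embryo. Trim Galore 0.4.0, FastQC, TopHat2 2.0.13, DESeq2 1.10.1 and build mm9 appear without role or order in the submitters' processing notes; for counting, annotation and the log2 formula, details were not given in the sources used here. Depth is unknown, and fold changes of low genes may be understated.

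Genes with a mean of at least log2 of 10 (3.32) were kept (12432; 84 dropped). Diets were compared with limma 3.58.1 in R 4.3.3 (moderated variances with an expression trend, two-sided, Benjamini-Hochberg adjustment over all genes kept, called below 0.05), and single values with exact permutation over 924 arrangements; the fit was checked on simulated data. The random effect used statmod 1.5.0. Alternatives changed the filter, scaling, variance model, weights, test and embryos included. Embryos are called biological replicates by the series text and were treated as independent; if embryos share a mother, p values are too small.

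The genes and lists were chosen with earlier results of these data known. Named were all 8 genes, called list members, and the 3 genes nearest to Prmt1, Prmt5 and Wdr77. List members with the smallest p, up to 4 per list, were also named, except Padi4, Btg2 and Bhmt2. Related genes outside this rule are marked as added after their values were seen. Promoter sequences came from RefSeq (GRCm38.p6) and transcript lengths from GENCODE.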

Additional observations from a re-analysis of the deposited data

How the results depend on the processing

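Prmt1 and Prmt5 kept their positive direction in all 27 alternatives; the Prmt1 call was lost in 5 and the Prmt5 call in 2. The count of all genes called, 1737, became 558 with the exact permutation test, 886 with a random effect for embryos of the same title number and diet, 298 with such embryos averaged, 729 without title number 1 and 49 without title number 4. Leaving out each embryo in turn gave 808 (without supplied replicate 5) to 2315 (without supplied replicate 4). Of the 8 genes, the 2 called higher became 1 with the exact test, 0 averaged, 1 without number 1 and 0 without number 4, and 1 to 2 without single embryos. The 8 related genes called higher became 3, 2, 4 and 0 in the same settings, and the 5 called lower became 1, 1, 1 and 0. Those called lower were 8 with array weights and 2 to 7 without single embryos. The 1 gene without overlap became 0 after quantile normalization and 2 without title number 3, and 1 to 2 without single embryos. The increase of Prmt5 over Wdr77, 0.26, was 0.253 without number 1, 0.224 without number 4 and 0.238 averaged, each with an exact permutation p above 0.05, and 0.20 to 0.31 without single embryos. The causes of these changes were not tested, those under quantile normalization and array weights included.

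The title numbers were not taken as pairs: deviations of same-numbered embryos under the 2 diets correlated at 0.36, -0.16, 0.26 and -0.17. Embryos of the same number and diet, which the main p values treat as independent, correlated in their deviations at 0.34 and 0.32 (supplied, numbers 1 and 4) and at 0.27 and -0.07 (withdrawn), and the random effect estimated a consensus correlation of 0.27. With the title number as a replicate block 2062 genes were called, 2 of the 8 genes again higher (adjusted p = 0.0128 for Prmt1 and 0.0123 for Prmt5), and 11 and 7 related genes. Depth per embryo is unknown, so counting error cannot be given.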
